A study of Mus musculus with 7 samples.

Results

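Cells of the authors' cluster 4, which carries markers of the loop of Henle, were compared with cells of their cluster 5, which carries markers of the distal convoluted tubule, within each of 7 mouse kidney libraries. The cells were chosen by the cluster number that the authors gave to each cell: cluster 4 held 1581 cells and cluster 5 held 8544, together 10125 of the 43745 cells in the matrix. The study profiled single cells of whole kidneys from C57BL/6 mice aged 4 to 8 weeks with the Chromium 3′ method, in which each captured RNA molecule is counted as a unique molecular identifier (UMI). The labels give 4 wild-type kidneys and 1 kidney each of the genotypes Cdh16CremTmG, SclCremTmG and Nphs2CremTmG, which are Cre recombinase lines with a membrane fluorescent reporter. In these lines the recombinase is driven from a tubule, an endothelial or blood-forming, and a podocyte gene, respectively, and the labels name no treatment and no sort. No source ties the library numbers in the matrix to these samples, so genotype was not used and the libraries, numbered 1 to 7, are treated as 7 kidneys of 1 group. The p-values therefore measure the spread between libraries.

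The thick ascending limb of the loop of Henle and the distal convoluted tubule follow each other along the nephron, and neither lets water pass freely. The thick ascending limb takes up sodium, potassium and chloride through the furosemide-sensitive cotransporter NKCC2 (Slc12a1), returns potassium to the lumen, and so drives calcium and magnesium between the cells through claudin pores. The distal convoluted tubule takes up sodium and chloride through the thiazide-sensitive cotransporter NCC (Slc12a3) and moves magnesium and calcium through the cells with channels, binding proteins and pumps. The question addressed here is how far the RNA of these neighbouring segments differs, and in which transport, regulatory and metabolic genes.

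Raw UMI counts were summed per library and cluster, giving 14 sums of 400582 to 1051716 UMIs for cluster 4 and 477729 to 15081631 for cluster 5. Cluster 4 made up 2.43 to 10.3% of a library's cells (median 3.24) and cluster 5 made up 11.4 to 28.3% (median 16.3), and cluster 5 had the larger share in 7 of 7 libraries (exact paired permutation test over libraries, two-sided p = 0.0156, the smallest that 7 pairs allow, adjusted p = 0.0312 over 4 such measures). Median UMIs per cell were 1648.5 to 2849.5 in cluster 4 and 1513 to 3530.0 in cluster 5, and the exact paired permutation test gave p = 0.5. Across libraries, 48 barcode sequences of these cells recurred in more than 1 library. Libraries 3 and 4 stood apart from the rest in Pvalb and resembled each other over the whole profile, so results that rest on them are also given without them.

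The marker check fitted the labels for both clusters, with an addition in cluster 5. All 6 loop of Henle markers (Slc12a1, Umod, Cldn16, Cldn19, Cldn10 and Egf) were higher in cluster 4, and all 6 distal convoluted tubule markers (Slc12a3, Pvalb, Trpm6, Calb1, Emx1 and Tmem52b) were higher in cluster 5, where 12.1% of all tested genes were called higher in cluster 4 and 14.2% higher in cluster 5. Of the 7 connecting tubule markers, 5 could be tested, and these 5 (Calb1, Trpv5, S100g, Klk1 and Scnn1b) were higher in cluster 5, which therefore also holds connecting tubule markers. Summed marker levels of other cell types ranged widely: 10.4 to 100.4 CPM and 7.91 to 124 CPM in clusters 4 and 5 for intercalated cells, 11.4 to 47.1 CPM and 12.3 to 78.2 CPM for thin limbs, 0 to 2.49 CPM and 0 to 2.55 CPM for podocytes, and 1.57 to 9.09 CPM and 0.666 to 9.31 CPM for endothelium. Proximal tubule markers summed to 982 to 4459 CPM and 1382 to 6275 CPM, principal cell markers to 14.6 to 61.1 CPM and 16.9 to 310.4 CPM, and red cell markers to 0 to 19.9 CPM and 0.444 to 2688 CPM; their part in the results was not tested. The groups are called loop of Henle-like and distal convoluted tubule-like below in that sense. The authors set the cluster numbers on these same counts, so the adjusted p-values below say how steadily a difference recurred over 7 libraries and are not independent evidence that the 2 cell types exist. Slc12a1 and Slc12a3 name the clusters, and their values are a description.

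Few cells carried both cotransporters. After each cell was thinned to 1000 UMIs, at least 1 UMI of Slc12a1 was seen in 90.1% of cluster 4 cells, 1.76% of cluster 5 cells and 1.36% of T lymphocyte-like cells of cluster 14, which should lack the gene. At their own depth, with medians of 2182, 2438 and 1875 UMIs, these shares were 94.6, 3.02 and 2.22%. Slc12a3 was seen in 3.90% of thinned cluster 4 cells, 80.1% of cluster 5 cells and 5.52% of cluster 14 cells (7.65, 85.4 and 8.49% at own depth). Over libraries, the thinned share of Slc12a3 had a median of 4.24% in cluster 4 and 3.97% in cluster 14, so the order of these clusters depends on the pooling and no expression of Slc12a3 in cluster 4 is read from its share. Cells with a UMI of each cotransporter made up 3.56% of cluster 4 and 1.10% of cluster 5 after thinning. Thinning left out 92 cells of cluster 4 and 473 of cluster 5 with under 1000 UMIs.

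The 2 segments differed in 26.3% of the genes tested, and the median size of a called difference was 0.61 on the log2 scale. Of 6488 genes that passed the low-count filter, 786 were higher in cluster 4 (12.1%) and 919 were higher in cluster 5 (14.2%) at an adjusted p under 0.05 (edgeR quasi-likelihood test with the library as a block, Benjamini-Hochberg adjustment). At least 2-fold differences were called for 191 genes higher in cluster 4 (2.94%) and 187 higher in cluster 5 (2.88%), and 28 and 17 genes differed by at least 16-fold. The 7 levels of cluster 4 all lay above those of cluster 5 for 221 genes (3.41%), and the reverse held for 193 (2.97%). The median log2 fold of all tested genes, cluster 4 minus cluster 5, was -0.01, so positive folds below mean higher in the loop. Levels are TMM-normalised CPM of the library sums, which scale every sum to a common size, given from the lowest to the highest of the 7 libraries with the median. A gene expressed in only 1 of the clusters can pass the filter through that cluster alone, so counts of tested members describe the lists and support nothing by themselves.

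**Figure D1:**
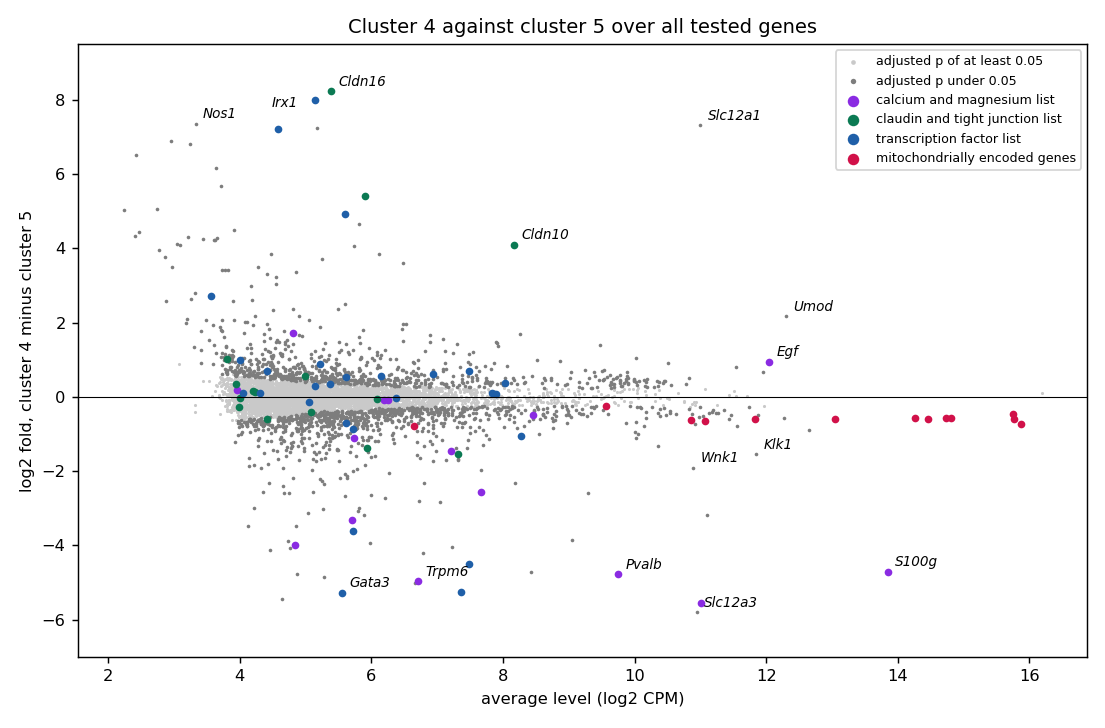
Each point is 1 of 6488 tested genes, with its average level in log2 CPM on the x axis and its log2 fold, cluster 4 minus cluster 5, on the y axis; colours mark 4 of the lists. Cldn16 and Irx1 lie at the top at low average levels, Slc12a1 and Slc12a3 lie far apart at similar average levels, and the mitochondrially encoded genes sit together a little below 0.

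Among called genes with an average level of at least 6 log2 CPM, at least 10 UMIs in each cluster and the same sign in every library, the largest differences towards the loop were those of Slc12a1, Cldn10, Ptger3, Ppp1r1b, Umod, Pde1a, Crip2, Apoe, Slc5a3, Car2, Cgnl1 and Sec14l1. Slc12a1, which encodes NKCC2, had levels of 3412 to 5124 CPM (median 3995) in cluster 4 and 17.2 to 41.7 CPM (median 23.9) in cluster 5, a 159-fold difference (log2 fold 7.32 ± 0.13, SE; adjusted p = 4.28e-39). Umod, which encodes uromodulin, the most abundant protein of normal urine, had levels of 5981 to 10194 CPM (median 8699) in cluster 4 and 953 to 4401 CPM (median 1797) in cluster 5 (log2 fold 2.17 ± 0.15, SE; adjusted p = 1.23e-16). The groups did not overlap for either gene, and library 6 was the one with the highest Umod level in cluster 5. Umod is not confined to the loop-like cells: 49.1% of thinned cluster 5 cells held a UMI of it, against 7.76% of cluster 14 cells and 84.8% of cluster 4 cells, and 44.0% of cluster 5 cells held Umod and Slc12a3 together. At their own depth Umod was seen in 89.9% of cluster 4, 64.3% of cluster 5 and 11.8% of cluster 14 cells.

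Towards the distal convoluted tubule the largest differences under the same conditions were those of Slc12a3, Calb1, Emx1, Rhcg, Trpm6, Pvalb, Pgam2, S100g, Lhx1, Lhx1os, Ptgfr and Clu. Slc12a3, which encodes NCC, had levels of 19.9 to 147 CPM (median 56.4) in cluster 4 and 3123 to 4454 CPM (median 3938) in cluster 5, a 55.7-fold difference (log2 fold -5.80 ± 0.20, SE; adjusted p = 9.32e-28). Pgam2, the muscle form of the glycolytic enzyme phosphoglycerate mutase, had levels of 6.27 to 46.7 CPM (median 18.9) in cluster 4 and 427 to 768 CPM (median 595) in cluster 5 (log2 fold -4.71 ± 0.16, SE; adjusted p = 2.45e-28). Clu, which encodes the secreted chaperone clusterin, had levels of 29.2 to 83.3 CPM (median 63.5) in cluster 4 and 660.2 to 1145 CPM (median 905) in cluster 5 (log2 fold -3.86 ± 0.12, SE; adjusted p = 1.59e-29). The levels of these 3 genes did not overlap between the clusters in any library. Rhcg, an ammonia channel, had levels of 0 to 11 CPM (median 2.09) in cluster 4 and 101 to 246 CPM (median 129.9) in cluster 5 and averaged 608 CPM in the principal-like cluster 6. Ptgfr, the prostaglandin F receptor, had a log2 fold of -4.05, and Lhx1os, annotated next to Lhx1 on the opposite strand, one of -4.21. The annotated spans of Lhx1 (chr11:84518284-84525535) and Lhx1os (chr11:84525660-84535831) do not overlap. In cluster 5, Lhx1os had 69.7 and 68.3 CPM in libraries 6 and 7, where Lhx1 had 280 and 304 CPM. Whether the authors' counting used strand is not given in the sources used here.

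**Figure D2:**
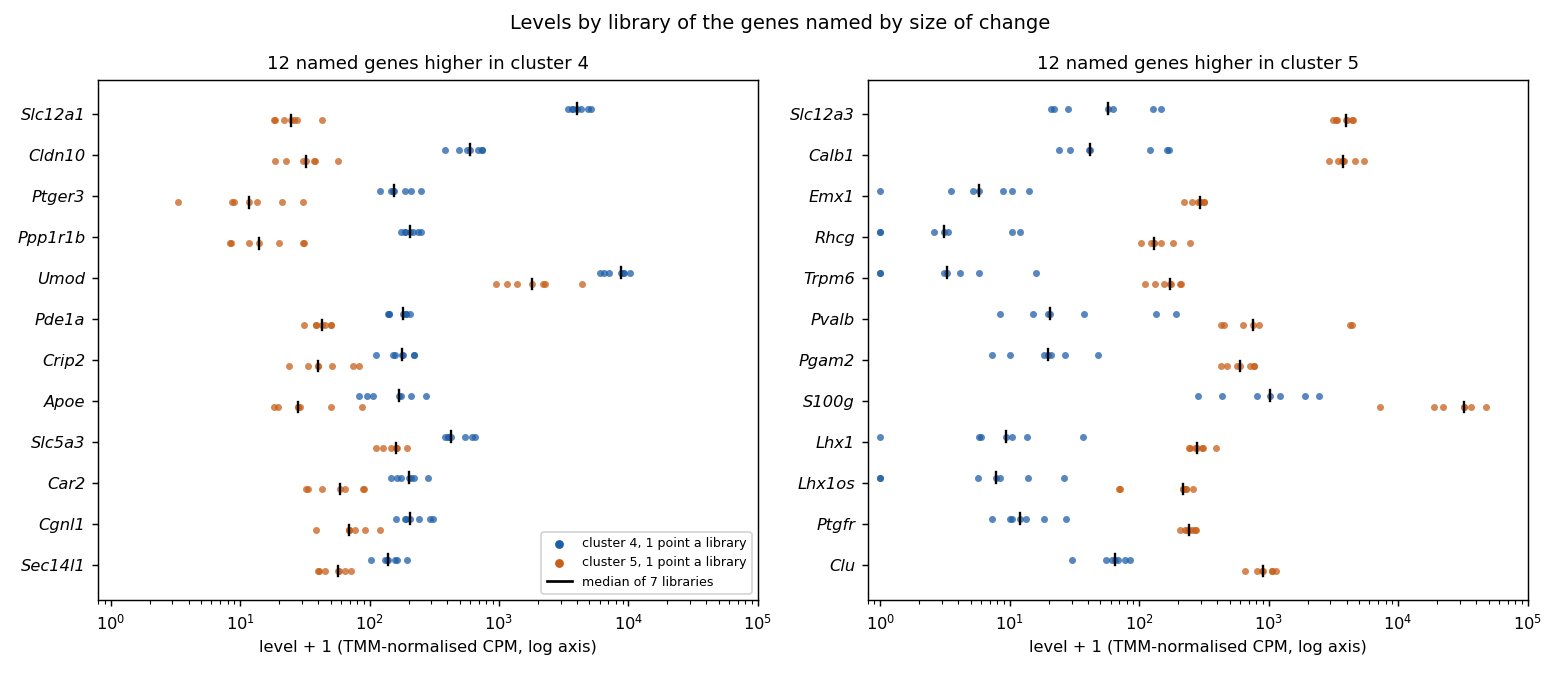
Levels plus 1 in TMM-normalised CPM (log axis) of the 12 named genes higher in cluster 4 (left) and the 12 higher in cluster 5 (right), with 1 point a library in blue for cluster 4 and orange for cluster 5 and a black bar at the median of 7 libraries. The colours separate in every row but Apoe, and Pvalb in cluster 5 splits into 2 high and 5 lower libraries.

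The promoters of the 2 cotransporters and of 3 other genes that mark the segments are shown because several transcription factors described further on differ between the same cells. Sequences run from 250 bases before to 50 after the start site, are from RefSeq on GRCm38.p6, and are given 5′ to 3′ on the gene's strand, with capitals for letters that match a motif on either strand. The Iroquois motif was searched as the letters ACANNTGT. The motif of the EMX and LIM homeodomain factors was searched as TAATTA, a core that many homeodomain proteins share. That of the GATA zinc finger factors was searched as AGATAA. The AP-2 motif was searched as the palindrome GCCNNNGGC. That of the oestrogen-related receptors was searched as AAGGTCA. The 5 motifs were chosen after the levels of these factors had been seen, and no 2 matches overlap in the windows printed. Slc12a1 lies on the + strand (chr2:125152350-125152649), Umod on the - strand (chr7:119479213-119479512), the more upstream of 2 Cldn10 windows on the + strand (chr14:118787621-118787920), Slc12a3 on the + strand (chr8:94328958-94329257) and Trpm6 on the + strand (chr19:18749480-18749779).
Slc12a1: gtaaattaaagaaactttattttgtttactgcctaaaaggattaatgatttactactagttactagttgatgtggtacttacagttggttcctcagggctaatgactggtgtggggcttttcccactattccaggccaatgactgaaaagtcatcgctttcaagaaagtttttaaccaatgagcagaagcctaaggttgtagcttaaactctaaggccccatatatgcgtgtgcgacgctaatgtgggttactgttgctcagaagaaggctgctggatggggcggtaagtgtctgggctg
Umod: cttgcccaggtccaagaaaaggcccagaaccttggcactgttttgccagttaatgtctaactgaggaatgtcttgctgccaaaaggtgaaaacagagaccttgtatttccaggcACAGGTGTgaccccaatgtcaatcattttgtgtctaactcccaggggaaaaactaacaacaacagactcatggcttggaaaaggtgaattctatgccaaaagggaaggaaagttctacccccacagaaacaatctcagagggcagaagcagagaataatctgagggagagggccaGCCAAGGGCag
Cldn10: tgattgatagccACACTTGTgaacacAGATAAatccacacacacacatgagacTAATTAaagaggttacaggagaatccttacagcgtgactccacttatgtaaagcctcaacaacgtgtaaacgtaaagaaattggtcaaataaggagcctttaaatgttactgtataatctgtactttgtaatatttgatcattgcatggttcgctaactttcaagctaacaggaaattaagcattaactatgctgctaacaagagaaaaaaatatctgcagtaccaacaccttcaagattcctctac
Slc12a3: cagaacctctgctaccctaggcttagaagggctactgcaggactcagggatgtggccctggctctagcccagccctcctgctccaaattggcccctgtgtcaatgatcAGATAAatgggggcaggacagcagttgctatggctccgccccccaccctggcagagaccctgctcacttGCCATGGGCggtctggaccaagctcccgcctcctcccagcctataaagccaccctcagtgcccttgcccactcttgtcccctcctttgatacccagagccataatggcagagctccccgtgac
Trpm6: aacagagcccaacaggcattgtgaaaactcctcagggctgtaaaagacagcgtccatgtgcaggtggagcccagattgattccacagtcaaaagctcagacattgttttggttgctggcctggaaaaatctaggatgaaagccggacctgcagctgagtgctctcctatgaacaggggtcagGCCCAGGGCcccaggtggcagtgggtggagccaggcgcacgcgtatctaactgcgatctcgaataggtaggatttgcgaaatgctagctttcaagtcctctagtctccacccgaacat

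The Umod window held 1 match each of the Iroquois and AP-2 motifs, the upstream Cldn10 window 1 each of the Iroquois, GATA and homeodomain motifs, the Slc12a3 window 1 each of the GATA and AP-2 motifs, and the Trpm6 window 1 of the AP-2 motif. None of the 5 motifs occurs in the Slc12a1 window or in the other Cldn10 window (chr14:118854700-118854999), which is not printed. Over 32851 promoter windows of the same length, the Iroquois motif was present in 7.38%, the homeodomain motif in 5.29%, the GATA motif in 11.2%, the AP-2 motif in 16.6% and the oestrogen-related receptor motif in 4.72%. Among the 6514 windows of tested genes the shares, in the same order, were 3.73, 2.50, 6.02, 26.1 and 3.29%. They were 4.42, 4.97, 4.42, 26.0 and 3.87% among the 181 windows of genes at least 2-fold higher in cluster 4, and 5.45, 3.47, 7.92, 26.2 and 4.46% among the 202 windows of genes at least 2-fold higher in cluster 5. With 181 and 202 windows, no order of the clusters is read from the Iroquois and homeodomain shares. These shares are descriptions of letters, with no test, and 5058 of the 6488 tested genes had a window.

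Apart from the cotransporters themselves, 7 tested regulators of their list were higher in the distal convoluted tubule-like cells (Wnk1, Wnk4, Klhl3, Cul3, Sgk1, Cab39l and Kl), 1 was higher in the loop of Henle-like cells (Ppp1r1a), and 4 were not called (Stk39, Oxsr1, Nedd4l and Cab39). Of 14 tested genes of the list of sodium chloride cotransporters and their kinases (15 listed), 8 were higher in cluster 5, 2 were higher in cluster 4 and 4 were not called, with a median log2 fold of -0.61; Slc12a1 and Slc12a3 are in these counts. The call of Cul3 (log2 fold -0.37, adjusted p = 0.0235) was lost in 9 of 19 alternatives. Wnk1, a kinase upstream of SPAK whose kidney form is a feature of the distal convoluted tubule, had levels of 596 to 988 CPM (median 736) in cluster 4 and 2618 to 3682 CPM (median 2832) in cluster 5 (log2 fold -1.91 ± 0.10, SE; adjusted p = 3.04e-21). Klhl3, the substrate adaptor that directs WNK kinases to degradation, had levels of 2.49 to 12.5 CPM (median 9.33) in cluster 4 and 48.5 to 119 CPM (median 72.8) in cluster 5 (log2 fold -3.08 ± 0.19, SE; adjusted p = 1.82e-18). Neither gene overlapped between the clusters, and the 3′ counts cannot tell the forms of Wnk1 apart. Wnk4 was 1.99-fold and Kl, which encodes the FGF23 co-receptor klotho, 6.01-fold higher in cluster 5 (adjusted p = 8.36e-12 and 1.85e-24).

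The kinases that act directly on the cotransporters were not called different. Stk39, which encodes SPAK, had levels of 44.6 to 109 CPM (median 67.1) in cluster 4 and 57.9 to 79.1 CPM (median 63.8) in cluster 5, with a 95% interval of the log2 fold of -0.18 to 0.32. Oxsr1, which encodes its relative OSR1, had an interval of -0.56 to 0.34 from 75 and 436 UMIs. The levels of these kinases overlapped between the clusters, and these intervals leave room for modest differences in either direction. Cul3, the ligase scaffold that works with KLHL3, was called with a log2 fold of -0.37 (adjusted p = 0.0235), and this call was lost in 9 of the alternative settings (adjusted p up to 0.194). Ppp1r1a, a phosphatase-1 inhibitor, went the other way and was 1.43-fold higher in cluster 4 (log2 fold 0.51 ± 0.09, SE; adjusted p = 2.01e-05).

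The potassium channel genes were mostly higher in the distal convoluted tubule-like cells. Of 11 tested genes of the potassium and chloride channel list (16 listed), 2 were higher in cluster 4, 6 were higher in cluster 5 and 3 were not called (median log2 fold -0.27). Bsnd, which encodes barttin, a subunit of kidney chloride channels, was not called and had an interval of -0.12 to 0.36.

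Kcnj10, the basolateral potassium channel Kir4.1, had levels of 56.4 to 75.2 CPM (median 67.1) in cluster 4 and 141 to 175 CPM (median 151) in cluster 5 (log2 fold -1.19 ± 0.11, SE; adjusted p = 2.7e-12). Kcnj1, which encodes ROMK, the channel that returns potassium to the lumen in the loop, was also 1.79-fold higher in cluster 5 (adjusted p = 2.32e-10), with levels of 217 to 401 CPM (median 311) in cluster 4 and 440.0 to 646 CPM (median 523) in cluster 5. These genes did not overlap between the clusters. Kcnj16, which encodes the Kir5.1 partner of Kir4.1, differed by a log2 fold of -0.27 (adjusted p = 0.0226), and its call was lost in 9 of the alternative settings (adjusted p up to 0.572). Kcnq1, a voltage-gated potassium channel, had a log2 fold of -2.20, and Kcnt1, a sodium-activated potassium channel, one of 5.06 from 98 UMIs in cluster 4 and 14 in cluster 5. Of 4 tested genes of the sodium pump and its FXYD partners (11 listed), 1 was higher in cluster 4, 2 were higher in cluster 5 and 1 was not called (median -0.23). Fxyd2 (regulatory subunit) had a log2 fold of -0.60 and Atp1b1 (beta subunit) one of 0.03, of which the first was called (adjusted p = 1.06e-05).

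Claudins, which set the permeability between cells, differed in both directions. Of 15 tested genes of the claudin and tight junction list (20 listed), 5 were higher in cluster 4, 3 were higher in cluster 5 and 7 were not called (median log2 fold 0.13). Cldn10, which forms a sodium pore, had levels of 380.1 to 738 CPM (median 593) in cluster 4 and 17.5 to 56.3 CPM (median 31.5) in cluster 5 (log2 fold 4.09 ± 0.11, SE; adjusted p = 1.85e-31). Cldn16, which together with Cldn19 is needed for calcium and magnesium uptake between cells, had levels of 83.1 to 172 CPM (median 122) in cluster 4 and 0 to 2.50 CPM (median 0.148) in cluster 5, where cluster 5 held 6 UMIs in all. Cldn19 had levels of 127 to 216 CPM (median 159) in cluster 4 and 0 to 5.11 CPM (median 2.50) in cluster 5 (log2 fold 5.42 ± 0.18, SE; adjusted p = 1.03e-28). All 3 lay above cluster 5 in every library, and Cldn10 and Cldn16 were seen together in 1.41% of thinned cluster 4 cells, against 31.8% with Cldn10 and 11.7% with Cldn16. Cldn10 was also present at 245 CPM in the proximal tubule-like cluster 3, and the 3′ counts cannot tell its isoforms apart.

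Cldn8, a barrier-forming claudin of the distal nephron, had levels of 62.5 to 114 CPM (median 72.3) in cluster 4 and 183 to 307 CPM (median 204) in cluster 5 (log2 fold -1.53 ± 0.11, SE; adjusted p = 1.33e-16). F11r, the junctional adhesion molecule A, was 2.59-fold higher in cluster 5 (log2 fold -1.37 ± 0.17, SE; adjusted p = 3.87e-09), with overlapping levels. Ocln, which encodes occludin, was 1.47-fold higher in cluster 4 (adjusted p = 0.0057), whereas Cldn7 (interval -0.29 to 0.20) and the scaffold Tjp1 (interval -0.49 to 0.43) were not called.

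**Figure D3:**
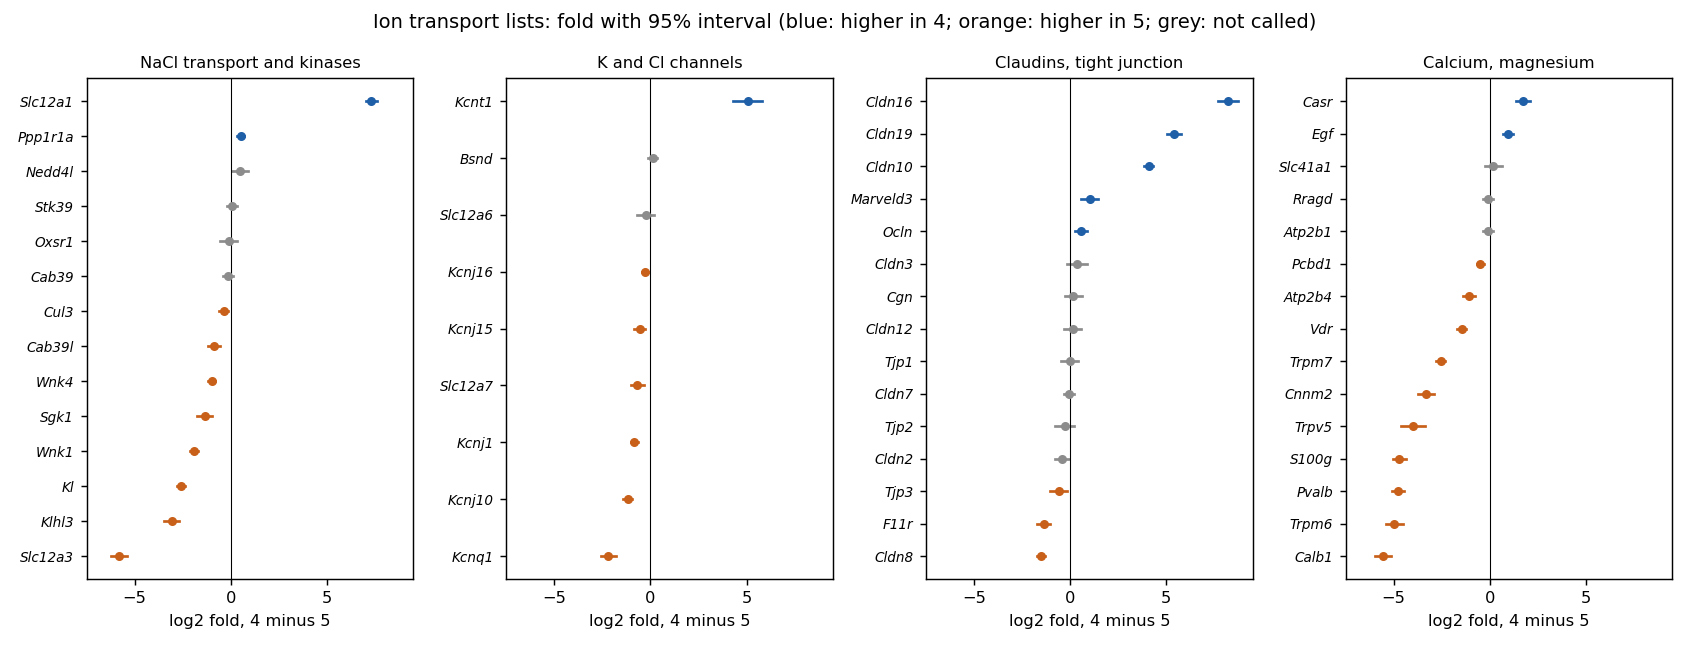
Log2 fold, cluster 4 minus cluster 5, with its 95% interval for tested members of 4 ion transport lists reported here (7 libraries); blue members are higher in cluster 4, orange in cluster 5 and grey are not called. The claudin panel runs from Cldn8 at -1.53 to Cldn16 at 8.22, and most of the calcium and magnesium panel lies below 0.

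Genes of calcium and magnesium transport through the cell were mostly higher in the distal convoluted tubule-like cells. Of 15 tested genes of the list (22 listed), 10 were higher in cluster 5, 2 were higher in cluster 4 and 3 were not called, with a median log2 fold of -1.47. Trpm6, the apical magnesium channel, had levels of 0 to 14.9 CPM (median 2.27) in cluster 4 and 109.9 to 211 CPM (median 173) in cluster 5 (log2 fold -4.96 ± 0.22, SE; adjusted p = 4.05e-24). Its partner Trpm7 had levels of 33.4 to 78.4 CPM (median 49.3) in cluster 4 and 258 to 455 CPM (median 297) in cluster 5 (log2 fold -2.56 ± 0.12, SE; adjusted p = 3.21e-22), and Cnnm2, a basolateral protein needed for magnesium balance, a log2 fold of -3.32. The levels of these 3 genes did not overlap between the clusters. Library 5 held the highest Trpm6 level of cluster 4, 14.9 CPM.

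Calb1 and S100g encode the calcium-binding calbindins. Calb1 had levels of 23.0 to 169.9 CPM (median 40.9) in cluster 4 and 2922 to 5472 CPM (median 3724) in cluster 5 (log2 fold -5.55 ± 0.20, SE; adjusted p = 4.51e-27). S100g had levels of 284 to 2443 CPM (median 1014) in cluster 4 and 7236 to 47781 CPM (median 32105) in cluster 5 (log2 fold -4.70 ± 0.17, SE; adjusted p = 9.93e-27), lowest in library 7 for both clusters. S100g UMIs were seen in 46.9% of thinned cluster 4 cells and 48.4% of cluster 14 cells (66.0 and 63.6% at own depth), with medians over libraries of 35.4 and 38.8% after thinning, so no expression of S100g in cluster 4 is read from its share. Trpv5, the apical calcium channel, had a log2 fold of -3.99, and Vdr, the vitamin D receptor, one of -1.47 (adjusted p = 8.86e-15 and 3.25e-15). In the other direction, Casr, the calcium-sensing receptor, had levels of 28.2 to 82.9 CPM (median 52.2) in cluster 4 and 9.81 to 19.8 CPM (median 15.2) in cluster 5 (log2 fold 1.73 ± 0.18, SE; adjusted p = 3.54e-11), with no overlap.

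Pvalb, which encodes the calcium buffer parvalbumin, had levels that varied widely between libraries. In cluster 5 its levels in libraries 1 to 7 were 756, 634, 4272, 4408, 424, 447 and 845 CPM, so libraries 3 and 4 were high. In cluster 4 they were 14.1, 7.46, 134, 189.7, 19.6, 36.1 and 18.8 CPM, with the same 2 libraries high. The difference between clusters was present in every library (log2 fold -4.77 ± 0.15, SE; adjusted p = 1.59e-29) and was -4.80 (adjusted p = 1.06e-25) without libraries 3 and 4. The share of thinned cluster 5 cells with a Pvalb UMI ran from 24.7 to 86.0% over libraries, against 3.60% in cluster 14 cells.

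Genes of the sodium channel and the connecting tubule were also higher in cluster 5. Of 11 tested genes of that list (15 listed), 8 were higher in cluster 5, 0 in cluster 4 and 3 were not called (median log2 fold -1.54). Scnn1b, the beta subunit of the epithelial sodium channel, had levels of 0 to 3.73 CPM (median 1.57) in cluster 4 and 29.9 to 92.8 CPM (median 47.7) in cluster 5 (log2 fold -4.86 ± 0.31, SE; adjusted p = 6.95e-18), and Scnn1a, the alpha subunit, was 1.75-fold higher (adjusted p = 9.6e-09). Hsd11b2, the enzyme that shields the mineralocorticoid receptor from glucocorticoids, had levels of 0 to 21.1 CPM (median 9.33) in cluster 4 and 13.6 to 203 CPM (median 56.3) in cluster 5 (log2 fold -3.18 ± 0.22, SE; adjusted p = 1.33e-16). Scnn1b did not overlap between the clusters, and Hsd11b2 did. The receptor itself, Nr3c2, was not called (interval -0.82 to 0.14). The summed level of the 5 principal cell markers was 14.6 to 61.1 CPM in cluster 4 and 16.9 to 310.4 CPM in cluster 5, with no member at 0; its part in these results was not tested. Klk1, which encodes tissue kallikrein, had levels of 1280.2 to 2303 CPM (median 1729.7) in cluster 4 and 1918 to 8629 CPM (median 6080.1) in cluster 5 (log2 fold -1.54 ± 0.13, SE; adjusted p = 3.33e-13). Within cluster 5, Pvalb was seen in 10.1% of 375 thinned cells with a Scnn1b UMI and 33.4% of 7696 without, and Slc12a3 in 53.9 and 81.4%. These shares pool the libraries. Over libraries, Pvalb ran from 0 to 62.5% (median 7.84) with Scnn1b and 25.4 to 87.0% (median 40.6) without. Slc12a3 ran from 14.3 to 91.7% (median 50) with Scnn1b and 72.2 to 84.7% (median 80.7) without, so the ranges overlapped for both genes.

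Markers of the macula densa, the cells at the end of the thick ascending limb that sense salt, were higher in cluster 4 than in cluster 5. Nos1, which encodes neuronal nitric oxide synthase, had levels of 24.9 to 47.1 CPM (median 35.2) in cluster 4 and 0 to 1.16 CPM (median 0) in cluster 5 (log2 fold 7.36 ± 0.36, SE; adjusted p = 4.02e-22) and was seen in 3.63% of thinned cluster 4 cells, 0.0496% of cluster 5 cells and 0 of 1250 cluster 14 cells, which allows a share of up to 0.240%. At their own depth the shares were 5.69, 0.0468 and 0.153%, the last being 2 of 1308 cells. Pappa2, a secreted metalloproteinase of these cells, fell below the filter with 61 UMIs in cluster 4 and 0 in cluster 5. Taking 3 UMIs in place of the 0 gave a ratio of 112, with a 95% counting interval of 36.4 to 556 (exact Clopper-Pearson). These 3 UMIs were set and not observed, so the interval gives no upper limit of the ratio. Ptgs2, the inducible cyclooxygenase, had 15 and 1 UMIs, a ratio of 82.3 with a wide 95% counting interval of 12.7 to 3466 (exact Clopper-Pearson). Summed over the 4 macula densa markers, the level was 44.7 to 84.5 CPM in cluster 4 and 0 to 1.54 CPM in cluster 5. The mean of that sum was 112 CPM in the intercalated-like cluster 7, nearly all of it from the vasopressin receptor gene Avpr1a (112 CPM). Intervals of this kind cover counting error only.

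Hormone receptors and their signalling partners were mostly higher in the loop-like cells. Of 13 tested genes of this list (25 listed), 7 were higher in cluster 4, 1 was higher in cluster 5 and 5 were not called (median log2 fold 0.46). Ptger3, the EP3 prostaglandin receptor, which lowers cAMP in the thick ascending limb, had levels of 119 to 249.9 CPM (median 152) in cluster 4 and 2.33 to 29.4 CPM (median 10.7) in cluster 5 (log2 fold 3.84 ± 0.14, SE; adjusted p = 1.25e-26). Ppp1r1b, which encodes the phosphatase inhibitor DARPP-32, had levels of 175 to 249.9 CPM (median 204) in cluster 4 and 7.36 to 30.3 CPM (median 13.1) in cluster 5 (log2 fold 3.61 ± 0.15, SE; adjusted p = 4.06e-25), and Pde1a, a calmodulin-dependent phosphodiesterase, a log2 fold of 1.96. The levels of these 3 genes did not overlap between the clusters. Smaller differences were called for the glucagon receptor Gcgr (1.58-fold, adjusted p = 1.78e-06), the glucocorticoid receptor Nr3c1 (1.99-fold, adjusted p = 1.75e-06) and the parathyroid hormone receptor Pth1r (1.45-fold, adjusted p = 0.00044). Hsd11b2, above, was the member that was higher in cluster 5.

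Most of the listed transcription factors that could be tested differed between the clusters, by amounts that ranged widely. Of 27 tested factors (34 listed), 12 were higher in cluster 4, 7 were higher in cluster 5 and 8 were not called, with a median log2 fold of 0.30. Irx1, an Iroquois homeodomain factor, had levels of 60.6 to 173 CPM (median 96.3) in cluster 4 and 0 to 0.565 CPM (median 0) in cluster 5 (log2 fold 8.00 ± 0.24, SE; adjusted p = 1e-29), from 442 UMIs in cluster 4 and 7 in cluster 5. Irx2, its neighbour on chromosome 13, had levels of 61.3 to 95.4 CPM (median 79.7) in cluster 4 and 0 to 2.45 CPM (median 0.370) in cluster 5 (log2 fold 7.22 ± 0.27, SE; adjusted p = 8.01e-27). Both stood apart from cluster 5 in all 7 libraries, and no other cluster among the proximal, principal-like, intercalated-like and T lymphocyte-like ones averaged above 2.61 CPM of Irx2 or 2.57 CPM of Irx1. Foxq1 (log2 fold 4.92) and Ehf (log2 fold 2.70), a forkhead and an ETS factor, were also higher in cluster 4 and averaged 91.7 and 22.7 CPM in the intercalated-like cluster 7 and 26.1 and 139 CPM in the principal-like cluster 6. Foxq1, Ehf, Sall3 and Tfap2b are named here after their values were seen.

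Emx1, a homeodomain factor, had levels of 0 to 13.1 CPM (median 4.78) in cluster 4 and 219.8 to 318 CPM (median 292) in cluster 5 (log2 fold -5.27 ± 0.19, SE; adjusted p = 4.85e-27). Lhx1, a LIM homeodomain factor, had levels of 0 to 35.5 CPM (median 8.35) in cluster 4 and 242 to 389 CPM (median 280.3) in cluster 5 (log2 fold -4.49 ± 0.19, SE; adjusted p = 7.75e-25), with library 5 highest in cluster 4. Gata3, a zinc finger factor of the distal nephron and the collecting duct, had levels of 0 to 4.54 CPM (median 0) in cluster 4 and 60.9 to 83.8 CPM (median 68.7) in cluster 5 (log2 fold -5.28 ± 0.30, SE; adjusted p = 9.64e-20). None of the 3 overlapped between the clusters. Gata3 averaged 82.4 CPM in the T lymphocyte-like cells, where it is a lineage factor, and 189 CPM in principal-like cells; the leukocyte markers (Ptprc, Cd74, Lyz2 and Cd3g) summed to 8.35 to 25.8 CPM in cluster 4 and 0.852 to 21.3 CPM in cluster 5, with no member at 0. Sall3, a zinc finger factor, had levels of 0.933 to 11.4 CPM (median 6.38) in cluster 4 and 54.0 to 111 CPM (median 70.1) in cluster 5 (log2 fold -3.63 ± 0.22, SE; adjusted p = 1.55e-18).

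The 4 factors with the highest average level held both called and uncalled genes. Mecom (interval -0.11 to 0.26) and Tfcp2l1 (interval -0.07 to 0.30) were not called. Hoxd8, a homeobox gene of the distal nephron, was 2.07-fold higher in cluster 5 (log2 fold -1.05 ± 0.10, SE; adjusted p = 1.55e-12), and Ppargc1a, a coactivator of mitochondrial genes, 1.29-fold higher in cluster 4 (adjusted p = 0.00163; adjusted p = 0.0775 without the library block). Tfap2b, an AP-2 factor, was 1.62-fold higher in cluster 4 (adjusted p = 9.08e-08).

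**Figure D4:**
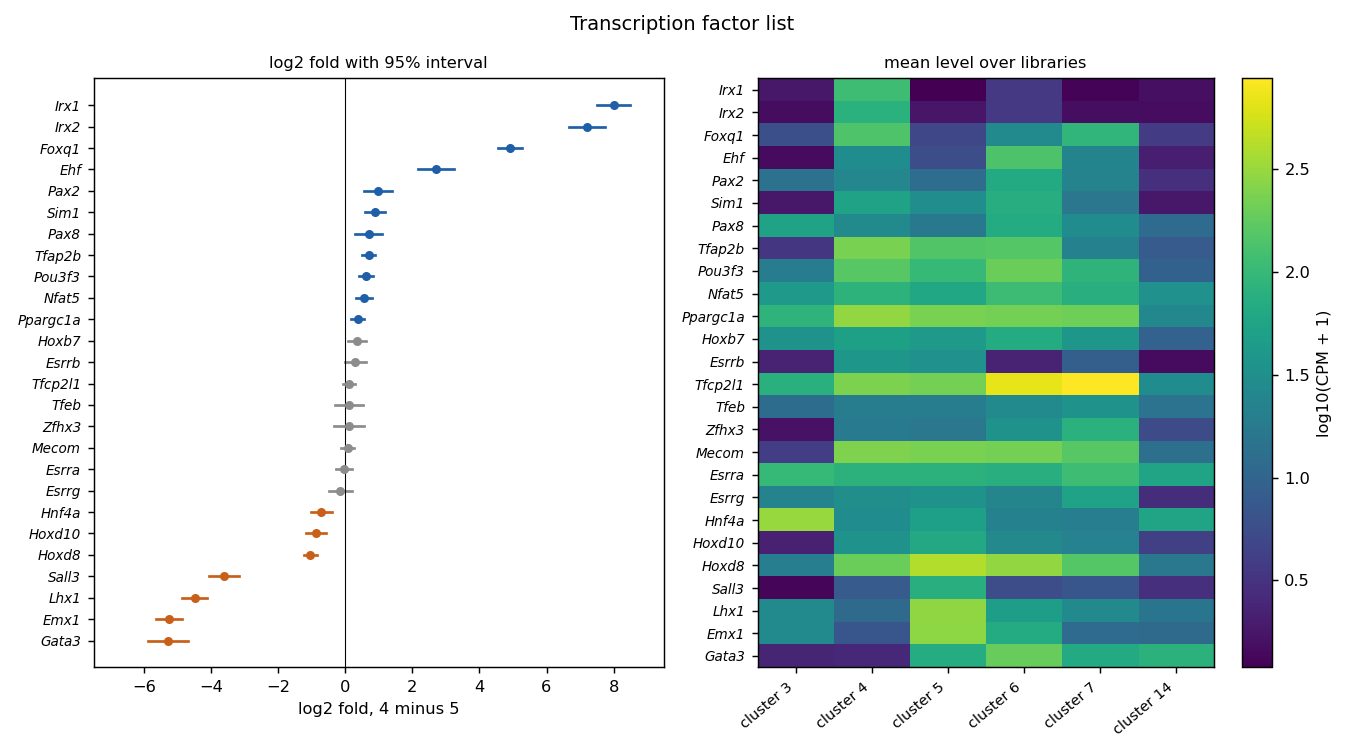
Left, log2 fold with 95% interval of the tested transcription factors reported here (blue higher in cluster 4, orange higher in cluster 5, grey not called); right, their mean level over libraries as log10(CPM + 1) in cluster 3 (proximal tubule-like), 4, 5, 6 (principal-like), 7 (intercalated-like) and 14 (T lymphocyte-like). Irx1 and Irx2 are bright in cluster 4 alone, and Emx1, Lhx1 and Sall3 are brightest in cluster 5.

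Secreted proteins were expressed in both segments in different mixtures. Of 14 tested genes (19 listed), 8 were higher in cluster 4, 4 were higher in cluster 5 and 2 were not called (median log2 fold 0.74). Egf, which encodes the epidermal growth factor precursor, had levels of 3738 to 7654 CPM (median 5738) in cluster 4 and 1794 to 4047 CPM (median 2582) in cluster 5 (log2 fold 0.94 ± 0.14, SE; adjusted p = 2.6e-07), and 67.9% of thinned cluster 5 cells held a UMI against 7.28% of cluster 14 cells. Sostdc1, a BMP and WNT antagonist, had levels of 809 to 1299.7 CPM (median 968) in cluster 4 and 282 to 610.0 CPM (median 371) in cluster 5 (log2 fold 1.40 ± 0.11, SE; adjusted p = 1.35e-14), and Apela, a ligand of the apelin receptor, a log2 fold of 3.36. Egf overlapped between the clusters, and Sostdc1 did not. Defb1, the antimicrobial beta-defensin 1, had levels of 322 to 568 CPM (median 432) in cluster 4 and 2669 to 5119.9 CPM (median 3852) in cluster 5 (log2 fold -3.17 ± 0.12, SE; adjusted p = 3.35e-26), without overlap. Wfdc2 and Wfdc15b, which encode small whey acidic proteins, were 1.58-fold and 1.75-fold higher in cluster 4.

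The carbonic anhydrase genes Car2, Car4, Car12 and Car15 were higher in the loop-like cells. Of 12 tested genes of the acid, base and ammonia list (18 listed), 5 were higher in cluster 4, 3 were higher in cluster 5 and 4 were not called (median log2 fold 0.21). Car2, the cytosolic enzyme, had levels of 146 to 282 CPM (median 200.5) in cluster 4 and 31.4 to 89.5 CPM (median 57.9) in cluster 5 (log2 fold 1.66 ± 0.13, SE; adjusted p = 1.61e-14). Car4, a membrane-bound form, had levels of 53.4 to 122 CPM (median 109) in cluster 4 and 11.6 to 29.4 CPM (median 20.02) in cluster 5 (log2 fold 2.36 ± 0.14, SE; adjusted p = 7.45e-19). Neither overlapped. Car15, another membrane-bound form, had 122 UMIs in cluster 4 and 3 in cluster 5, a ratio of 223 with a 95% counting interval of 74.6 to 1097 (exact Clopper-Pearson). Slc5a3, the myo-inositol transporter that brings an osmolyte into cells of the medulla, had levels of 379 to 656 CPM (median 422) in cluster 4 and 110.4 to 192 CPM (median 158) in cluster 5 (log2 fold 1.69 ± 0.09, SE; adjusted p = 2.07e-20), without overlap, while of the 8 tested osmolyte and tonicity genes 1 was higher in cluster 4 and 3 in cluster 5 (median -0.08).

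Mitochondrial RNA took a larger share of the distal convoluted tubule-like cells. The median mitochondrial share of a cell's UMIs was 16.7 to 31.2% over libraries in cluster 4 (median 21.3) and 29.2 to 36.6% in cluster 5 (median 33.6), and it was higher in cluster 5 in 7 of 7 libraries (exact paired permutation test, two-sided p = 0.0156, adjusted p = 0.0312). Of the 13 mitochondrially encoded messenger RNAs, 12 were higher in cluster 5, 0 in cluster 4 and 1 was not called (median log2 fold -0.59). mt-Co1, a subunit of cytochrome oxidase, had levels of 31828 to 67042 CPM (median 46369.5) in cluster 4 and 63614 to 83146 CPM (median 75365) in cluster 5 (log2 fold -0.74 ± 0.12, SE; adjusted p = 4.25e-06), overlapping between clusters though higher in cluster 5 in every library.

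Nuclear genes of oxidative phosphorylation moved the same way by less. Of 44 tested, 24 were higher in cluster 5, 0 in cluster 4 and 20 were not called (median log2 fold -0.26); without libraries 3 and 4 the counts were 11 and 0 and the median -0.19. The summed level of the list was higher in cluster 5 in 6 of 7 libraries and lower in library 6. Ndufa1, a subunit of complex I, had levels of 542 to 880.2 CPM (median 695) in cluster 4 and 854 to 1802 CPM (median 1376) in cluster 5 (log2 fold -0.99 ± 0.09, SE; adjusted p = 2.07e-12). Uqcrq (complex III), Sdhc (complex II) and Cox6c (complex IV) had log2 folds of -0.72, -0.58 and -0.57. Levels of Ndufa1, Uqcrq and Cox6c overlapped between the clusters, and those of Sdhc did not.

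The calls in the fuel pathways are given as descriptions of the lists. Of all tested genes, 12.1% were called higher in cluster 4 and 14.2% higher in cluster 5. Of 26 tested genes of fatty acid and ketone oxidation, 10 were higher in cluster 5 and 1 in cluster 4 (median -0.16), led by Hadh, a dehydrogenase of beta-oxidation, with levels of 89.5 to 132 CPM (median 100.4) in cluster 4 and 185 to 287 CPM (median 241) in cluster 5 (log2 fold -1.15 ± 0.10, SE; adjusted p = 8.88e-13). Oxct1, which starts ketone use, had a log2 fold of -0.70, and Ehhadh, a peroxisomal enzyme that averaged 119 CPM in proximal tubule-like cells, one of -0.82. Of 21 tested citric acid cycle genes, 4 were higher in cluster 5 and 0 in cluster 4 (median -0.09). Of 17 tested glycolysis genes, 4 were higher in cluster 4 and 1 in cluster 5 (median 0.09): the pyruvate kinase Pkm was 1.63-fold higher in cluster 5, Pfkl and Aldoc were 1.72-fold and 1.83-fold higher in cluster 4, and Gapdh was not called (interval -0.16 to 0.20). Of 4 tested creatine genes, 1 was higher in cluster 4 and 3 in cluster 5 (median -0.37): creatine kinase B (Ckb) was 1.37-fold higher in cluster 4 and Gatm, which makes a creatine precursor, 1.64-fold higher in cluster 5.

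Proximal tubule markers were mostly higher in the distal convoluted tubule-like cells. Of 9 tested markers, 8 were higher in cluster 5 and none in cluster 4 (median log2 fold -0.53), their summed level was 982 to 4459 CPM in cluster 4 and 1382 to 6275 CPM in cluster 5, and no member was at 0. The phosphate transporter Slc34a1, for example, had levels of 104 to 585 CPM (median 269) in cluster 4 and 191 to 718 CPM (median 377) in cluster 5 (log2 fold -0.61 ± 0.10, SE; adjusted p = 5.11e-06) and averaged 456 CPM in T lymphocyte-like cells. Without the library block none of the 9 was called. The part of these markers in the differences of Gatm, Ehhadh, Hadh, Gpx3, Slc4a4 and other genes that proximal cells express was not tested. Haemoglobin (Hbb-bs) was found in cluster 5 mainly in library 4, with 996 UMIs, and library 2, with 242.

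Cytosolic ribosomal protein genes were mostly higher in the loop-like cells. Of 77 tested, 59 were higher in cluster 4, 1 was higher in cluster 5 and 17 were not called (median log2 fold 0.36), and the direction of the median was the same in all 19 alternative settings, with medians of 0.33 to 0.41. Rpl3 had levels of 638 to 896 CPM (median 714) in cluster 4 and 412 to 502 CPM (median 469.7) in cluster 5 (log2 fold 0.73 ± 0.09, SE; adjusted p = 1.89e-09), with no overlap, and Rpl7 a log2 fold of 0.72. Rpl41, the member with the highest average level, was not called (interval -0.16 to 0.21). Summed over the list, levels were 65932 to 94107 CPM in cluster 4 and 55654 to 67294 CPM in cluster 5. With the mitochondrially encoded genes left out of the library sizes, 60 were higher in cluster 4 and 1 in cluster 5.

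**Figure D5:**
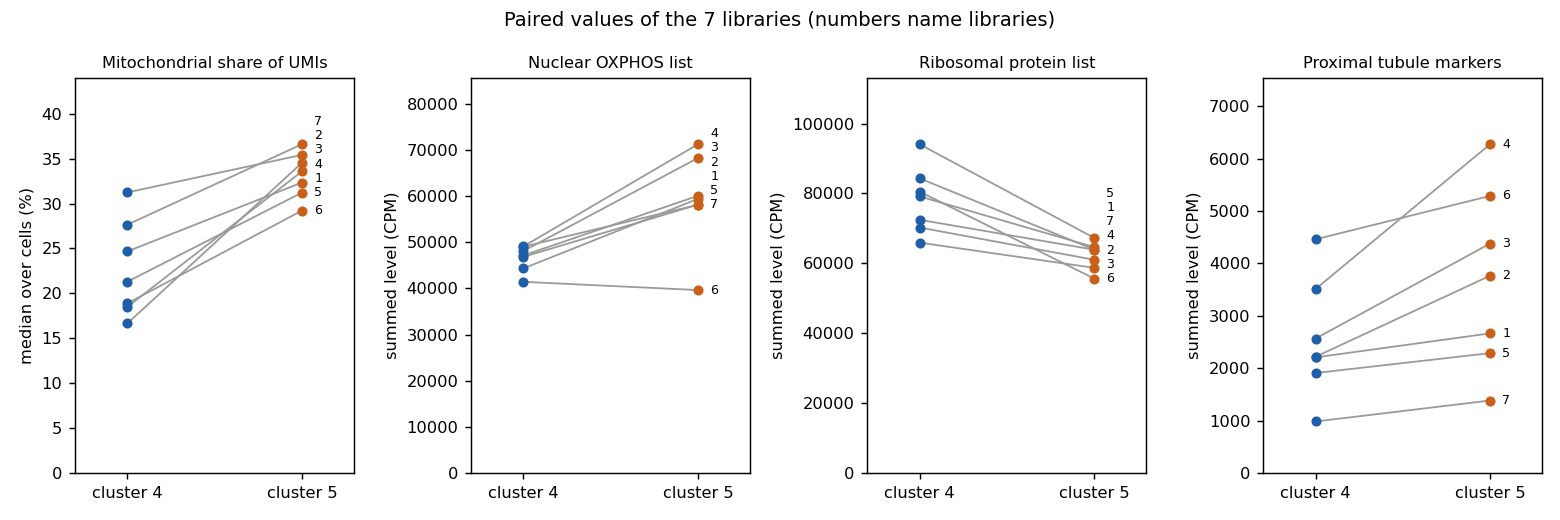
Paired values of the 7 libraries, with a line from cluster 4 (blue) to cluster 5 (orange) and the library number at the right: the median mitochondrial share of a cell's UMIs in percent, and the summed levels in CPM of the nuclear oxidative phosphorylation list, the ribosomal protein list and the 9 proximal tubule markers. Lines rise in all 7 libraries in the first and last panels, rise in 6 in the second and fall in all 7 in the third.

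Genes of inherited disorders of salt and magnesium handling fell on both sides. Of the 7 tested genes of Bartter syndrome, a disorder of the thick ascending limb, 3 were higher in cluster 4, among them Slc12a1 and Casr, 1 was higher in cluster 5 (Kcnj1) and 3 were not called (median log2 fold 0.12). Of the 16 tested genes of Gitelman syndrome, familial hyperkalaemic hypertension and inherited magnesium loss, 11 were higher in cluster 5, 4 were higher in cluster 4, among them Cldn16, Cldn19 and Egf, and 1 was not called (median -0.55). These lists share members with those above and add no independent values.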

How the data were processed

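Single cells of 7 mouse kidneys were counted by the Chromium 3′ method. The deposited table holds the authors' raw UMI counts for 16272 genes in 43745 cells, with their cluster number for each cell; the design text states 57979 cells, and cells outside the table are not analysed here. Cell Ranger 1.3, STAR and mm10 (GRCm38.p4) are named per the submitters' processing notes. Of the gene symbols, 15721 matched the gene-name table. Library numbers come from the barcode endings.

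Counts were summed per library and cluster (all 14 sums held at least 5 cells) and tested with edgeR 4.0.16 in R 4.3.3: TMM normalisation, filterByExpr by cluster (minimum count 10), quasi-likelihood test of cluster with the library as a block, and Benjamini-Hochberg adjustment over 6488 genes at 0.05. The block is part of the design because both sums of a library come from 1 kidney. Their deviations from the cluster means correlated at r = 0.19 to 0.59 over genes in the 7 libraries. The highest correlation with the cluster 5 sum of a different library was 0.08 to 0.36. In library 3 it was above the same-library value (0.361 against 0.351). No doublet caller was run; cells with 2 or more UMIs of the other segment's cotransporter and the deepest 5% of cells were left out as alternatives, as were DESeq2 1.42.0 and other settings. The scripts were tested on simulated data. Per-cell medians were compared by exact paired permutation tests over libraries.

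The cells, gene lists and tests were chosen with earlier results of these data known. Genes are named as the 12 with the largest fold in each direction under the conditions given with them, as members of 24 lists and as markers; from lists with more than 15 tested members at most 8 are named, by fold and by level, apart from genes said to be chosen after their values were seen. Promoters are from RefSeq and gene positions from GENCODE, both on GRCm38. Some members of the lists are counted but not reported here by name.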

Additional observations from a re-analysis of the deposited data

Results flagged for a closer look

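Among 236 groups of 7 libraries (levels of named genes that reached at least 5 CPM, and per-cell measures), 15 had a library far from the other 6 by Dixon's test at the 95% level (6.36%), where chance flags about 1 in 20 groups. Library 6 accounted for 5 of them. It had 4401 CPM of Umod in cluster 5 (953 to 2246 in the others), 446 CPM of Pth1r in cluster 5 (165 to 264 in the others), 3664 CPM of Cox6c in cluster 5 (5807 to 6485 in the others), 6.29 CPM of Trpv5 in cluster 4 (0 to 2.49 in the others) and 7.86 CPM of Ptgs1 in cluster 4 (0 to 2.49 in the others); Cox6c was the low one.

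Library 2 had 41.7 CPM of Slc12a1 in cluster 5 (17.2 to 26.5 in the others), 0 CPM of Oxsr1 in cluster 4 (15.9 to 25.8 in the others) and 17.4 CPM of Hbb-bs in cluster 4 (0 to 4.78 in the others). Library 5 had 14.9 CPM of Trpm6 in cluster 4 (0 to 4.78 in the others) and 35.5 CPM of Lhx1 in cluster 4 (0 to 12.6 in the others). Library 7 had 109 CPM of Stk39 in cluster 4 (44.6 to 70.7 in the others) and 4962 CPM of Mt1 in cluster 5 (2361 to 3482 in the others). Library 1 had 175 CPM of Kcnj10 in cluster 5 (141 to 155 in the others), library 3 had 239 CPM of Krt7 in cluster 4 (121 to 171 in the others) and library 4 had 1246 CPM of Hbb-bs in cluster 5 (0 to 206 in the others).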

How the results depend on the processing

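Of the genes named in the text, 117 were followed through the 19 alternatives. None of these changed direction past the threshold in any alternative in which it was tested. Sgk1, Cab39l, Cab39, Nedd4l and Car12 were among the named genes not followed. Of 2176 gene and setting pairs, 2137 kept their side of the threshold and 39 lost a call, and 106 of 117 genes kept theirs throughout; Ppargc1a, Cul3, Kcnj16, Pth1r, Ckb, Gatm, Gpx3, Slc34a1, Lrp2, Hsp90ab1 and Hspa1b lost a call in at least 1. Without the replicate block, 456 genes were higher in cluster 4 and 496 in cluster 5; with cells thinned to 1000 UMIs (3181 genes tested), 425 and 448. DESeq2's Wald test called 562 higher in cluster 5, and cells under 30% mitochondrial UMIs gave 591. At least 2-fold differences numbered 504 and 439 with no low-count filter (15538 genes tested), 334 and 308 with clusters 3 to 8 in the fit, and 84 and 98 after thinning. Leaving out 1 library at a time gave 622 to 798 genes higher in cluster 4 and 728 to 877 in cluster 5, and 171 to 218 and 167 to 213 of at least 2-fold. Without libraries 3 and 4, an alternative chosen after seeing the data, 1502 genes were called, of which 1302 were among the 1705. The mean difference, cluster 4 minus 5, ran from -13.2 to -9.57 percentage points for the share of the library, -11.6 to -9.36 for the mitochondrial share, 68.1 to 361 for median UMIs and 125 to 215 for median genes, the last of which was 162 with all libraries (exact permutation p = 0.0625) and reached p = 0.0312 without library 5 (215). At their own depth, cells with Slc12a1 made up 94.6% of cluster 4 and 3.02% of cluster 5, with Slc12a3 7.65% of cluster 4, and with both 7.27 and 2.33%. Thin sums limit genes of few UMIs in cluster 4, the smaller cluster.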

Other observations

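Tested stress-response genes showed no common direction between the segments. Of all tested genes, 12.1% were called higher in cluster 4 and 14.2% in cluster 5. Of 7 tested immediate early genes (17 listed), 2 were higher in cluster 4 (Jun at a log2 fold of 1.12 and Klf6 at 0.82), 1 was higher in cluster 5 (Ier3 at -0.83) and 4 were not called (median -0.07). The other 10, among them Fos, Junb, Egr1 and Klf2, fell below the filter and were not tested. Levels in clusters 4 and 5 were 6.27 to 39.8 and 6.78 to 11.6 CPM for Junb, and 0 to 23.6 and 1.13 to 2.55 CPM for Egr1. Klf2 leaned the other way, at 0 to 3.19 and 1.29 to 5.82 CPM. Of 11 tested heat shock proteins, 1 was higher in cluster 4 (Hsp90ab1 at 0.24, edgeR adjusted p = 0.0359, lost in 7 of 19 alternatives) and 3 were higher in cluster 5, among them Hspa1b at -0.66 (edgeR adjusted p = 0.0253, lost in 5 of 17 alternatives). The median of the heat shock list was -0.16. Of 7 tested injury markers (15 listed, 8 below the filter), 3 were higher in cluster 4, 1, Clu, in cluster 5 and 3 were not called (median 0.11). The summed level of the list was nonetheless higher in cluster 5, at 376 to 586 CPM in cluster 4 and 922 to 1386 CPM in cluster 5. Clu alone had 660 to 1145 CPM in cluster 5. Anxa2, a calcium-dependent membrane-binding protein, had levels of 24.9 to 55.0 CPM (median 35.5) in cluster 4 and 1.69 to 4.91 CPM (median 2.33) in cluster 5 (log2 fold 4.22 ± 0.25, SE; adjusted p = 5.18e-19), with no overlap, and the epithelial keratin Krt7 was at 0.54.

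Of 19 tested antioxidant and metallothionein genes, 9 were higher in cluster 5, 4 in cluster 4 and 6 were not called (median -0.06). The metallothioneins Mt2 and Mt1, which bind zinc and copper, were higher in cluster 4, at log2 folds of 1.05 and 0.66. Nqo1, a quinone reductase, had levels of 2.49 to 22.0 CPM (median 11.7) in cluster 4 and 17.2 to 49.8 CPM (median 38.4) in cluster 5 (log2 fold -1.45 ± 0.22, SE; adjusted p = 1.08e-06). Gpx3, the secreted glutathione peroxidase, was at -0.79 and averaged 19376 CPM in the proximal tubule-like cluster. The levels of these 4 genes overlapped between the clusters.

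A few genes outside the lists, chosen after their values were seen, separated the clusters in every library. Slc5a1, the sodium-glucose cotransporter SGLT1, had levels of 105 to 211 CPM (median 168) in cluster 4 and 0 to 8.49 CPM (median 5.08) in cluster 5 (log2 fold 4.67 ± 0.17, SE; adjusted p = 2.21e-27). Tmem207, a membrane protein gene, had levels of 74.7 to 140.3 CPM (median 119) in cluster 4 and 0 to 2.45 CPM (median 0.771) in cluster 5 (log2 fold 7.24 ± 0.23, SE; adjusted p = 2.35e-29). Sim2, a basic helix-loop-helix transcription factor, had a log2 fold of 6.79. In cluster 5, Kitl, the ligand of the receptor KIT, had levels of 0 to 4.78 CPM (median 0.933) in cluster 4 and 16.3 to 103 CPM (median 33.2) in cluster 5 (log2 fold -4.76 ± 0.31, SE; adjusted p = 2.49e-17), and Ptgs1, the constitutive cyclooxygenase, a log2 fold of -3.87.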
